A study of Rattus norvegicus with 6 samples.

Results

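The TGF-beta ligands, their receptors and the SMAD proteins were examined in neonatal rat ventricular cardiomyocytes (NRVCs) cultured with or without C3a. The set holds 10 genes, namely the ligands Tgfb1, Tgfb2 and Tgfb3, the receptors Tgfbr1, Tgfbr2 and Tgfbr3, and Smad2, Smad3, Smad4 and Smad7. They were found by gene symbol among the 16569 genes that the array probes name, where 14 probes represent them, and each gene was read from whichever of its probes was brightest on average over the 6 arrays. Tgfb3 was chosen by its lower signal with C3a in these same arrays, so that its difference is given as a description, without a p-value, and it is left out of the counts of called members.

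TGF-beta is made as a latent precursor, which furin cleaves and which latent TGF-beta binding proteins hold in the extracellular matrix until it is released. The active ligand binds TGFBR2, which recruits and phosphorylates TGFBR1, while betaglycan (TGFBR3) presents the ligand, TGF-beta2 above all, to TGFBR2. TGFBR1 phosphorylates SMAD2 and SMAD3, these enter the nucleus with SMAD4, and SMAD7 is induced in return and blocks the receptor. In the heart this pathway is best known for turning fibroblasts into matrix-producing cells during fibrosis.

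NRVCs are primary cells from the ventricles of Sprague-Dawley rats 1 to 2 days old, with 8 to 10 hearts per preparation and a preplating step that leaves behind cells that attach fast. The control group was kept in control medium, and the other group received recombinant C3a, the fragment released when complement C3 is cleaved, at 0.5 µg/ml for 12 h. Each group had 3 samples, and each sample was labelled with Cy3 and hybridised to a 1-colour Agilent SurePrint G3 Rat array. No genetic change is named for the rats, and both groups had the same culture conditions, which the sample records describe as serum-free and the methods as 1 h in 1% fetal bovine serum before C3a. The records do not say whether the samples of a group came from separate cultures, so p-values measure the spread between these samples, which may be technical. The question of the comparison was which genes differ between NRVCs with and without C3a.

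All 6 arrays lay on 1 slide, the controls in one column and the C3a arrays in the other, so position and treatment cannot be told apart. Local background was 47 intensity units at the median on control replicate 1 and 23 or 24 on the other arrays, and 38.6% of probes were well above background on control replicate 1 against 53.7% to 57.3% elsewhere. The log2 signal is given relative to the 75th percentile of all probes of its array, a level of 207 to 367 intensity units. The cells carried the markers of their label. All 14 cardiomyocyte markers with a probe were well above background on every array, led by Myh6 and Tnnt2. Markers of other cells were also measured. Of 12 fibroblast markers 8 were well above background on every array, led by Col1a2 and Col1a1, as were 6 of 9 endothelial markers, 7 of 10 smooth muscle and pericyte markers and 3 of 12 macrophage markers. Among the macrophage markers, Fcgr3a, C1qa and Mrc1 were not above background on any array. The members are expressed in several of these cell types, and in RNA from whole cultures fewer cells of a type and less RNA per cell cannot be told apart.

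Of the 10 genes, 9 had a brightest probe that was well above background on all 6 arrays, and these 9 entered the comparison. The exception was Tgfbr3, whose single probe passed on 1 of 3 arrays in each group, at relative log2 signals from -4.61 to -3.36. Its level was not compared.

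**Figure D1:**
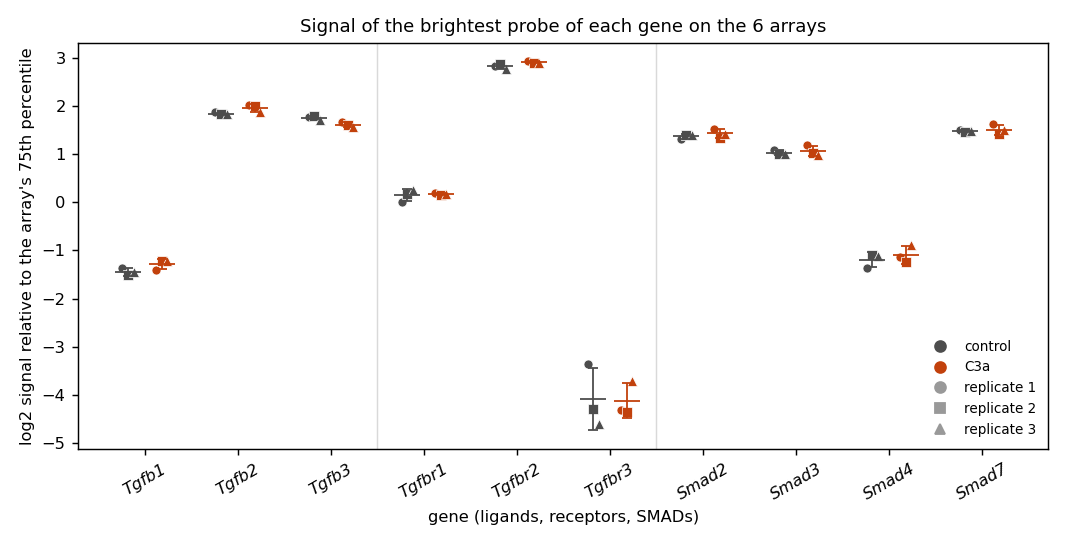
Relative log2 signal of the brightest probe of each gene (y axis) on the 3 control arrays (grey) and the 3 C3a arrays (orange), with symbols for the replicate number and bars for the mean and SD of 3 arrays. Tgfb3 was lower on the C3a arrays (1.56 to 1.66) than on the controls (1.71 to 1.78), while the groups overlapped for Tgfb1, Tgfbr1 and the SMAD genes. Tgfbr3 lies near background, and heights of different probes are not amounts of transcript.

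Read from the brightest probes, Tgfb3 was the one member with a lower mean with C3a among the 9. On the controls its probe, A_44_P125025, gave relative log2 signals of 1.77, 1.78 and 1.71, and on the C3a arrays 1.66, 1.60 and 1.56. All 3 C3a arrays lay below all 3 controls, as they did for 4.84% of the 10386 genes tested. No other probe was named for Tgfb3, so this separation could not be checked on another probe. The means were 1.75 ± 0.037 in the controls and 1.61 ± 0.048 after C3a (SD, n = 3 each), a difference of -0.14 on the log2 scale, or 0.905 times the control signal. Within pairs of equal replicate number the difference was -0.11, -0.18 and -0.15. Without control replicate 1, the array with the high background, it was -0.14. Tgfb3 encodes the ligand that the palate needs to fuse.

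The other ligands had higher means with C3a on the same scale. Tgfb1, the isoform most often studied in cardiac fibrosis, had control signals of -1.36, -1.52 and -1.46 and C3a signals of -1.40, -1.22 and -1.23. The groups overlapped, since C3a replicate 1 lay below control replicate 1. The log2 difference was 0.16, with a 95% interval of -0.077 to 0.40 (adjusted p = 0.743 from limma).

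Tgfb2, which the developing heart needs for its valves and septa, was measured by 3 probes. The brightest, A_44_P1001517, gave 1.86, 1.83 and 1.82 without C3a and 2.01, 1.99 and 1.86 with C3a. The C3a arrays lay above the controls, though C3a replicate 3 exceeded control replicate 1 by little. The log2 difference was 0.12, with a 95% interval of -0.097 to 0.33 (adjusted p = 0.749 from limma). The dimmer Tgfb2 probes A_43_P12532 and A_44_P246538 were well above background on all arrays too, and there the groups overlapped, with differences of 0.0099 and 0.076. The separation seen with the brightest probe was therefore not shared by the other probes of the gene. The brightest probe was designed on a predicted RefSeq transcript and the dimmer probes on a curated one.

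Among the receptors, Tgfbr2, the receptor that binds the ligand first, was covered by 2 probes that differed in sign. The brightest, A_44_P1108700, is printed many times on the array and was averaged over 9 or 10 spots. It gave 2.83, 2.86 and 2.76 without C3a and 2.93, 2.88 and 2.90 with C3a. The groups did not overlap, and the log2 difference was 0.085, with a 95% interval of -0.12 to 0.29 (adjusted p = 0.781 from limma). The dimmer probe A_64_P129315 gave a difference of -0.10, with a 95% interval of -0.33 to 0.12, and overlapping groups. The brighter probe was designed on a predicted RefSeq transcript and the dimmer one on a curated transcript. No direction is given for Tgfbr2, since the mean of both probes differed by -0.0087.

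Tgfbr1, the kinase that signals to the SMADs, gave 0.0068, 0.17 and 0.25 without C3a and 0.19, 0.14 and 0.17 with C3a. The C3a arrays lay inside the range of the controls. The log2 difference was 0.028, with a 95% interval of -0.21 to 0.26 (adjusted p = 0.941 from limma). A dimmer Tgfbr1 probe was well above background on 1 of 3 controls and 2 of 3 arrays with C3a, which left it out of the comparison.

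The SMAD genes overlapped between the groups throughout. Smad2 gave 1.31, 1.39 and 1.40 without C3a and 1.51, 1.34 and 1.42 with C3a, a log2 difference of 0.062 with a 95% interval of -0.16 to 0.28. Smad3, the other SMAD that the receptor phosphorylates, gave 1.08, 1.00 and 1.01 against 1.18, 1.02 and 0.99, a difference of 0.035 with a 95% interval of -0.19 to 0.26. For both genes the highest array was C3a replicate 1.

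Smad4, the partner shared with BMP signalling, was dimmer and spread more, from -1.37 to -1.09 without C3a and from -1.24 to -0.90 with C3a. Its log2 difference was 0.10, with a 95% interval of -0.21 to 0.41. Smad7, the inhibitory SMAD that TGF-beta itself induces, gave 1.50, 1.46 and 1.48 against 1.61, 1.41 and 1.50, a difference of 0.024 with a 95% interval of -0.20 to 0.25. Adjusted p from limma was between 0.823 and 0.946 for the 4 SMAD genes. Smad2, Smad4 and Smad7 lie on one chromosome in the rat, which the rule did not use, and they did not share a separation of the groups.

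Across the 8 compared members other than Tgfb3, 0 passed an adjusted p of 0.05 from limma, as did 0 of all 23438 kept probes (0.0%), with 0.697 the smallest adjusted p. At an unadjusted p under 0.05 limma called 0 of these 8, against 5.33% of the 10386 genes tested and 5.82% of all kept probes, and the fit with the replicate numbers as pairs also called 0, against 11.9%. The plain equal-variance test, called the methods' t-test here, called 0 of the 8 at an unadjusted p under 0.05, against 4.93% of genes. On the brightest probes the C3a arrays lay above all controls for 2 of the 8, Tgfb2 and Tgfbr2, against 8.16% of genes, and below all controls for 0, against 4.84%. For neither of these genes did the other kept probes separate the groups. The shares of all genes include genes kept through a single group, while these 8 members were well above background on every array. The standard error of a difference was 0.088 to 0.13 among the members and 0.12 at the median of all genes. The 95% intervals of the 8 brightest probes, with percentile scaling, reached from -0.21 to 0.41, and those of the dimmer kept probes of Tgfb2 and Tgfbr2 from -0.33 to 0.44.

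**Figure D2:**
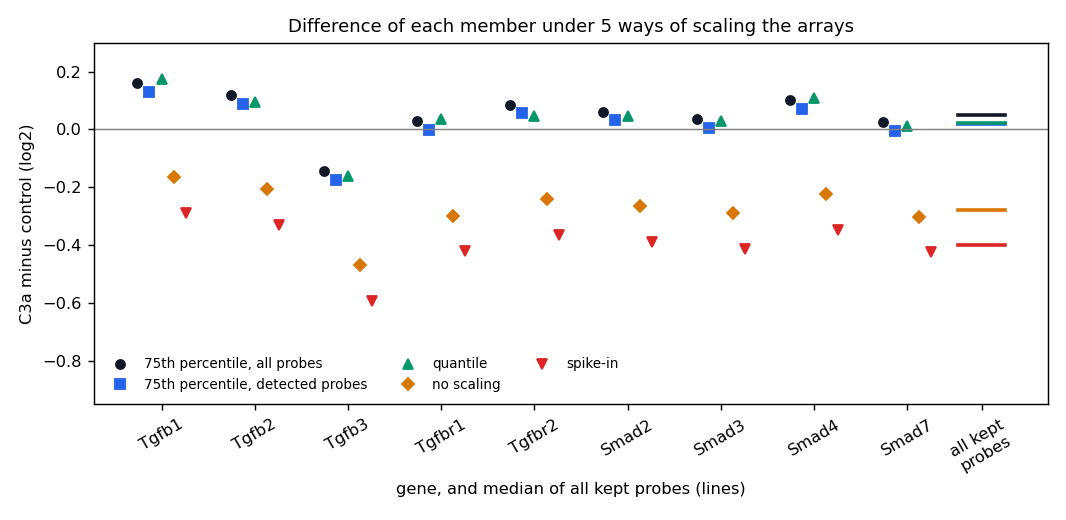
Log2 difference, C3a minus control (y axis), for the 9 compared genes under 5 ways of scaling the arrays, with short lines at the right for the median of all kept probes under each. Tgfb3 lies below 0 under all 5, while the brightest probes of the other 8 genes lie above 0 or near it with percentile and quantile scaling and below 0 with no scaling or spike-in scaling, where the median of all probes is -0.28 and -0.40.

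The signs of these differences rest on the scaling. With the 75th percentile the brightest probe was above 0 for 8 of 9 members, among them Tgfbr2, whose other probe was below 0, and for 60.6% of all genes. The median of the 9 members was 0.062 against 0.036 for all genes. Without scaling between arrays, and with scaling to the spike-in transcripts added at labelling, all 8 turned below 0 together with the median of all kept probes. For Tgfb3, 13 of the 20 alternative settings can change the difference, and it ranged from -0.59 to -0.12 over them, a description of the value that chose the gene. Taken relative to the median of all kept probes of the same setting, it was -0.19 with the 75th percentile. Without a filter on dim probes it was -0.044. No scaling and spike-in scaling differ from the percentile only by a constant per array, so they return the same -0.19 by construction.

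The balance between isoforms can be followed without any scaling, as the difference between 2 probes on the same array. Such a difference shows unequal change and not which of the genes changed, and its level also reflects how well each probe hybridises. Tgfb3 minus Tgfb1 was 3.13, 3.30 and 3.17 on the controls and 3.06, 2.83 and 2.79 on the C3a arrays. The groups did not overlap, with means of 3.20 ± 0.087 and 2.89 ± 0.14 (SD, n = 3 each), a change of -0.30. Tgfb3 minus Tgfb2 was -0.094, -0.046 and -0.11 on the controls and -0.35, -0.38 and -0.30 on the C3a arrays. Again the groups did not overlap, and the change was -0.26. Both hold the Tgfb3 difference that led to its choice and were not tested.

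**Figure D3:**
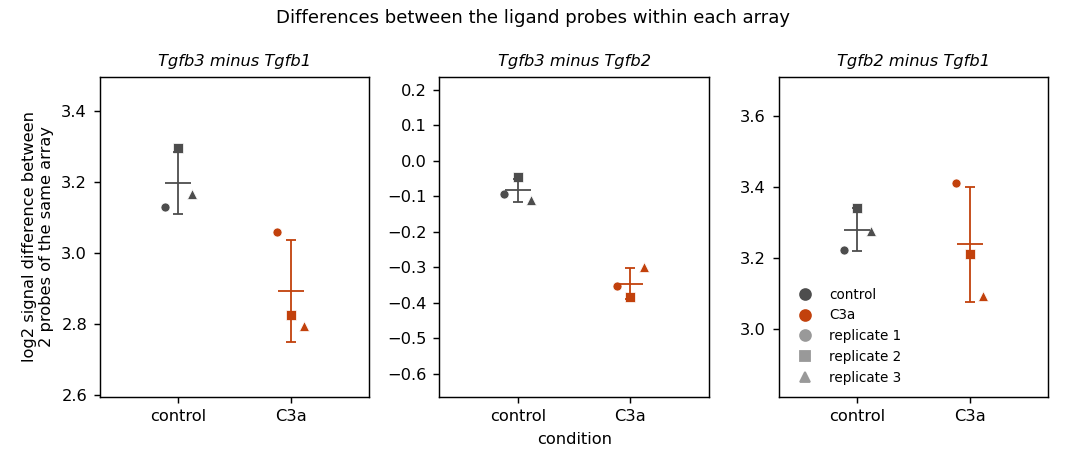
Log2 signal of one ligand probe minus that of another on the same array (y axis, the same span in each panel), for control (grey) and C3a arrays (orange), with symbols for the replicate number and bars for the mean and SD of 3 arrays. Both panels with Tgfb3 show the C3a arrays below the controls, by -0.30 against Tgfb1 and -0.26 against Tgfb2, while Tgfb2 minus Tgfb1 overlaps.

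Leaving out each array in turn gave changes of -0.39 to -0.25 for Tgfb3 minus Tgfb1 and of -0.29 to -0.24 for Tgfb3 minus Tgfb2. Since these groups did not overlap, leaving out an array could not change the sign. The choice of Tgfb2 probe mattered more. Against the dimmer Tgfb2 probes, a comparison added after seeing the data, the change was -0.15 and -0.22, and the groups overlapped for both. Tgfb2 minus Tgfb1, which does not involve Tgfb3, changed by -0.042 with overlapping groups. The two-sided exact permutation test gave p = 0.8, and p = 0.9 adjusted over the 4 pairs tested, where 3 against 3 arrays cannot go below 0.1. The other tested pairs were Tgfbr2 minus Tgfbr1, with a change of 0.057, Smad7 minus Smad3, with -0.011, and Smad2 minus Smad3, with 0.026, each with an adjusted p of 0.9 from the same exact test. For Tgfbr2 minus Tgfbr1 the 3 C3a arrays agreed within 2.72 to 2.74 while the controls spread from 2.51 to 2.82. This pair used the brighter Tgfbr2 probe, which differed by 0.085, while the dimmer probe differed by -0.10. No direction is therefore given for the pair, which was not run with the dimmer probe.

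The genes whose signal followed that of Tgfb3 most closely over the 6 arrays were Dnajb5, Stmn1, Ngly1, Ywhag and Colec12. Pearson's r was 0.992, 0.984, 0.982, 0.980 and 0.977, and 26 of the other 10385 genes reached 0.95. Dnajb5 encodes a heat shock protein of the DnaJ family, Stmn1 a regulator of microtubules, Ngly1 an enzyme that removes sugar chains from proteins, Ywhag a 14-3-3 protein and Colec12 a scavenger receptor. With 6 arrays that share the same scaling, such values are a description. Tgfb3 was chosen for its lower signal with C3a, and each r holds that difference between the groups, those of the members below included. Dnajb5 had the largest difference of them, with signals of -1.83, -1.84 and -2.17 without C3a and -2.30, -2.49 and -2.64 with C3a, a log2 difference of -0.53. The differences of Stmn1 and Ngly1, -0.13 each, were close to that of Tgfb3. Ywhag differed by -0.24, with overlapping groups, and Colec12 by -0.36 on a dim probe that 2 of 3 controls measured. Among the members, r with Tgfb3 was -0.83 for Tgfb1 and between -0.50 and 0.082 for the others.

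**Figure D4:**
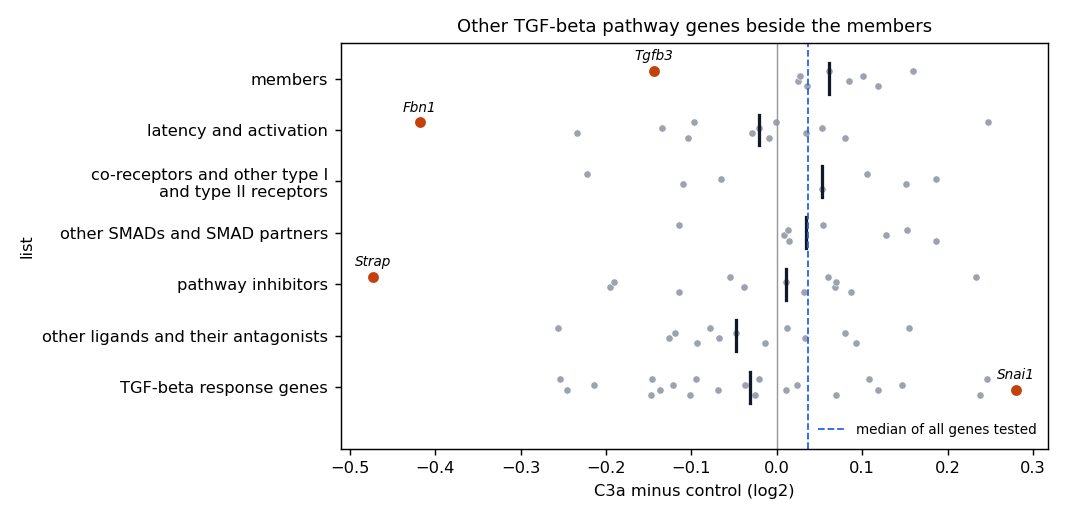
Log2 difference, C3a minus control (x axis), of each gene with a kept probe in the 9 compared members and in 6 lists of other pathway genes (y axis), with a bar for the median of each list and a dashed line for that of all genes. Named points are Tgfb3 and the 3 pathway genes at an unadjusted p under 0.05 from limma, of which Fbn1 and Strap lie below 0 and Snai1 above.

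Of 112 other genes of the pathway, 102 had a named probe and 75 a kept one. At an unadjusted p under 0.05 from limma 1 was higher and 2 were lower with C3a, against 2.91% and 2.43% of all genes, and 0 passed the adjusted threshold (adjusted p = 0.743 for each of the 3). The median log2 difference over the 75 genes was -0.0090, against 0.036 for all genes tested. For 4 of the 75 all C3a arrays lay above all controls and for 4 below, against 8.16% and 4.84% of all genes.

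Genes for latency and activation had 13 kept members, of which 0 were higher and 1 was lower, with a median of -0.021. The lower gene was Fbn1, which encodes fibrillin-1, the microfibril protein that anchors latent TGF-beta. It gave -0.45, -0.45 and -0.59 without C3a and -0.79, -0.84 and -1.12 with C3a, and the groups did not overlap. Its log2 difference was -0.42 (standard error 0.12). Over the 13 of 20 alternatives that can change it, the difference ranged from -0.87 with spike-in scaling to -0.27 with normexp. Furin, the protease that cleaves the precursor, gave 3.65, 3.32 and 3.55 against 3.77, 3.74 and 3.76, a difference of 0.25 (standard error 0.11) that missed the unadjusted threshold although the groups did not overlap. The brightest gene of the list was Itgb1, an integrin subunit, with a difference of 0.034.

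The co-receptors and other type I and type II receptors had 7 kept genes, and 0 were called in either direction, with a median of 0.053. Bmpr1a and Bmpr2, receptors for BMP ligands, differed by -0.066 and 0.19. The other SMADs and their partners had 8 kept genes, 0 of them called, with a median of 0.034. Of these, Crebbp, a coactivator that SMADs recruit, differed by 0.014 and Tab1, which activates the kinase TAK1, by 0.054. The other ligands and their antagonists had 13 kept genes, 0 of them called, with a median of -0.048. Bmp5 differed by -0.12 and Gdf15, a ligand that rises in many forms of cell stress, by -0.094.

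The inhibitors of the pathway had 13 kept genes, of which 0 were higher and 1 was lower, with a median of 0.011. The lower gene was Strap, which holds SMAD7 at the receptor. It gave 1.30, 1.72 and 1.20 without C3a and 0.98, 1.18 and 0.63 with C3a. The lowest control lay just above the highest C3a array, and the log2 difference was -0.47 (standard error 0.19). Strap no longer passed the unadjusted threshold in 6 of 20 alternatives, which were array weights with a difference of -0.26, the methods' t-test, no filter, and leaving out control replicate 2 with -0.32, C3a replicate 1 with -0.50 or C3a replicate 3 with -0.32. Pmepa1, which TGF-beta induces and which limits SMAD activation, differed by 0.23 and Bgn, the matrix proteoglycan biglycan, by 0.070, with overlapping groups for both.

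The TGF-beta response genes had 22 kept genes, of which 1 was higher and 0 were lower, with a median of -0.031. The higher gene, Snai1, a transcription factor of epithelial-mesenchymal transition, gave -0.98, -1.24 and -1.07 against -0.82, -0.91 and -0.72. The groups did not overlap. It differed by 0.28 (standard error 0.11), which turned to -0.045 without scaling and to -0.17 with spike-in scaling. Snai1 no longer passed the unadjusted threshold in 9 of 20 alternatives, these included, along with no filter, normexp, the variance trend and 4 of the arrays left out, namely control replicates 2 and 3 with 0.21 and 0.29 and C3a replicates 1 and 3 with 0.28 and 0.23. The brightest response genes, the collagens Col1a2 and Col1a1, differed by 0.011 and 0.024 with overlapping groups.

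Marker lists of the cell types in these cultures were measured beside these results. The mean relative log2 signal of 11 kept fibroblast markers was 0.35 to 0.60 on the controls and 0.31 to 0.37 on the C3a arrays, and that of 14 cardiomyocyte markers was 7.07 to 7.32 and 7.21 to 7.38. The log2 of the summed fibroblast signal was 6.79 to 6.95 and 6.76 to 6.94. It was 1.19 to 1.45 and 1.34 to 1.60 for 6 endothelial markers and 0.20 to 0.37 and 0.33 to 0.45 for 10 smooth muscle and pericyte markers, again as mean signals. These ranges overlapped. Within pairs of equal replicate number, C3a minus control, the mean fibroblast signal differed by -0.23, -0.13 and -0.039, below 0 in 3 of 3. For the 8 fibroblast markers well above background on every array, the mean differed by -0.10, -0.11 and -0.040. The cardiomyocyte mean differed by 0.063, 0.22 and 0.0092, and the smooth muscle and pericyte mean by 0.079, 0.13 and 0.038, above 0 in 3 of 3 pairs each. Over the 7 smooth muscle and pericyte markers well above background on every array, the mean differed by 0.060, 0.068 and 0.0076. The remaining markers of that list were kept through the C3a arrays alone. The endothelial mean was above 0 in 2 of 3 pairs. For 6 kept macrophage markers the mean signal was -0.64 to -0.43 on the controls and -0.37 to -0.27 on the C3a arrays, but 3 of them, Itgam, Csf1r and C1qb, were kept through the C3a arrays alone. Over the 3 macrophage markers well above background on every array, the mean was 1.81 to 2.27 and 1.87 to 2.02, with overlapping groups. This restriction and the differences within pairs were added after seeing the data. At an unadjusted p under 0.05 from limma, Lum was lower by -0.54 among fibroblast markers, Notch3 was higher by 0.41 among smooth muscle and pericyte markers and Itgam was higher by 0.63 among macrophage markers, each on probes that 2 of 3 control arrays measured. The brightest markers differed by 0.24 for Vwf and 0.14 for Kdr of endothelial cells, -0.10 for Tagln and 0.10 for Cspg4 of smooth muscle and pericytes, and 0.036 for Lgals3 and -0.088 for Lyz2 of macrophages. The part of cell composition in the differences of the members was not tested.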

How the data were processed

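RNA of NRVCs was measured on 6 arrays, 3 control and 3 C3a, grouped by the condition in the sample titles. The authors deposited the intensity of each spot from Agilent Feature Extraction 11.5.1.1, corrected for background and not normalized between arrays, together with other values such as flags for spots well above background. A further table deposited by the authors holds log2 values, and these matched the percentile-scaled log2 intensity described next within 0.0059 at the median, so that scale, centring and direction are known. The column medians of that table lay between -3.13 and -3.00.

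Control and outlier spots were left out, spots of a probe were averaged, and each array's 75th percentile was subtracted on the log2 scale. Of 45598 probes, 23438 were well above background (at least 50% of spots) on all 3 arrays of a condition and were kept. Accessions in the GRCr8 gene table named 46.3% of probes, leaving out those shared by several genes. No coordinates are printed, since the array design may use another assembly. Genes were tested through their brightest probe, with limma 3.58.1 in R 4.3.3 (two-sided, Benjamini-Hochberg over the kept probes). Exact permutation tests used scipy 1.17.1. The limma fit was also tested on simulated data with known changes. The methods name GeneSpring and an analysis of variance at 0.05, which with 2 groups is the plain equal-variance test, run as an alternative.

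Arrays of equal replicate number deviated together (correlations of 0.28, 0.32 and 0.31 over kept probes), so the numbers were also used as pairs, a pairing seen in the data and not stated in the records. Alternatives covered scaling, background correction, filters, weights, the variance trend, the deposited table, pairing and each array left out. Normexp used the median spot signal, as no mean spot signal is given.

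The members and gene lists were chosen with earlier results of these data known. The result of 1 gene of the pathway lists is not reported here, and the counts and medians of the lists leave it out. The text names all members, the 2 brightest genes of each pathway list and up to 3 at an unadjusted p under 0.05 with the largest differences, the 5 genes most like Tgfb3, and the 2 brightest markers per cell type. Lum, Notch3, Itgam, Csf1r and C1qb were named after their values were seen.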

Additional observations from a re-analysis of the deposited data

How the results depend on the processing

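The count of 0 probes at an adjusted p under 0.05 from limma became 4 with no normalization between arrays and 16 under spike-in scaling, and it stayed at 0 in the other 17 alternatives, the replicate block and each array left out included. The 1364 probes at an unadjusted p under 0.05 became 3198 with the replicate block and 2599 without normalization. Leaving out each array gave 709 to 2139, with 709 without C3a replicate 3, 895 without C3a replicate 1 and 2139 without control replicate 3. Of these 1364 probes 57.4% were higher, against 36.7% with probes detected on all 6 arrays, 34.7% without a filter, 43.8% with the percentile over detected probes, 46.9% with a variance trend, 67.9% in the methods' t-test, 1.58% without normalization and 0.526% with spike-in scaling. The median of all kept probes was 0.048, -0.28 without normalization and -0.40 with spike-in scaling. The replicate block changed no call of a member.

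Tgfb3 moved from -0.14 to -0.47 without normalization and to -0.59 with spike-in scaling, and leaving out each array gave -0.17 to -0.12. Since its groups did not overlap, leaving out an array could not change the sign. Without normalization and with spike-in scaling, the difference became -0.17 and -0.29 for Tgfb1, -0.21 and -0.33 for Tgfb2, -0.30 and -0.42 for Tgfbr1, -0.24 and -0.36 for Tgfbr2, -0.26 and -0.39 for Smad2, -0.29 and -0.41 for Smad3, -0.22 and -0.35 for Smad4, -0.30 and -0.43 for Smad7, and -0.045 and -0.17 for Snai1. Small differences also changed sign elsewhere. Tgfbr1 was -0.027 with array weights, -0.0011 with the percentile over detected probes and -0.040 without control replicate 1. Tgfbr2 was -0.0087 as the mean of its probes. Smad3 was -0.013 with normexp and -0.024 without C3a replicate 1, and Smad7 was -0.0049 with normexp, -0.0045 with the percentile over detected probes and -0.029 without C3a replicate 1. Leaving out each array gave -0.040 to 0.082 for Tgfbr1, 0.018 (without C3a replicate 1) to 0.10 (without C3a replicate 2) for Smad2, 0.0017 (without C3a replicate 3) to 0.18 (without C3a replicate 2) for Smad4, -0.024 to 0.074 for Smad3 and -0.029 to 0.074 for Smad7, and within arrays -0.13 to 0.031 for Tgfb2 minus Tgfb1, -0.026 to 0.13 for Tgfbr2 minus Tgfbr1, -0.047 to 0.018 for Smad7 minus Smad3 and -0.025 to 0.052 for Smad2 minus Smad3. Also within arrays, Smad2 minus Smad3 was -0.0076 with array weights, -0.012 without C3a replicate 3 and -0.025 without control replicate 1, Smad7 minus Smad3 was 0.0079 with normexp and 0.018 without C3a replicate 2, Tgfb2 minus Tgfb1 was 0.031 without C3a replicate 3, and Tgfbr2 minus Tgfbr1 was -0.026 without control replicate 3. The causes were not tested. Genes of the pathway lists at an unadjusted p under 0.05 numbered 0 to 3 per list over the alternatives, against 0 or 1. No other difference of a member changed sign. Signal over background kept Tgfbr3 out of every comparison that used a filter, and its result without a filter is not given. The difference of Tgfbr3 and Tgfbr2 was not run.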
